A study of Mus musculus with 16 samples.

Results

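The genes described here are those of the mouse major histocompatibility complex (MHC) and of antigen presentation: every gene whose symbol starts with H2-, and 14 further genes of peptide supply, regulation and costimulation (B2m, Tap1, Tap2, Tapbp, Tapbpl, Erap1, Nlrc5, Ciita, Cd74, Cd1d1, Mr1, Rfx5, Cd80 and Cd86). The gene annotation held 59 such symbols, and 35 of them, 21 with an H2- symbol, were among the 15350 genes with a value in every library. By role, 20 belonged to class I, 9 to class II and 6 to neither. Transcripts were read by mRNA sequencing in brown adipose tissue taken from between the shoulder blades (interscapular) of C57BL/6J mice, either wild type (WT) or Ucp1-knockout (KO; Ucp1 encodes the uncoupling protein that lets the tissue make heat). Mice were labelled as given saline or isoproterenol, an agonist of beta-adrenergic receptors that an Alzet minipump infused at 60 mg/kg/day for 3 days, and how saline was given is not stated in the labels. Each of the 4 groups (WT saline, WT isoproterenol, KO saline, KO isoproterenol) held 4 libraries. The labels give no ages and no account of which part of Ucp1 was deleted, and do not state if libraries within a group came from separate animals, so p-values weigh only the spread among these libraries, part of which may be technical.

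MHC class I molecules stand on nearly every nucleated cell and show peptides cut from the cell's own proteins to T cells. A heavy chain folds with beta-2-microglobulin (B2m) around a peptide that the TAP transporter has pumped into the endoplasmic reticulum, and the transactivator NLRC5, which interferon gamma induces, drives many of the genes involved. MHC class II molecules are made mainly by dendritic cells, B cells and macrophages, show peptides of engulfed material, and depend on the transactivator CIITA. Adipose tissue holds resident macrophages, and adipocytes have themselves been described to make both classes.

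Promoter windows are printed for genes that the results below turn on: 4 class I genes, a class II chain and, as a contrast, a class I gene, H2-Q10, that was lower in KO. Of the 35 members, 23 had a RefSeq window (GRCm38.p6, 250 bases before to 50 after the start), and 27025 genes had one in all. Those windows were searched on both strands for a core of the interferon-stimulated response element (ISRE, GAAANNGAA), for the Y box (CCAAT), for a core of the X box (AGNAACNGA) and for a kappa B element (GGGANTCCC). No 2 of these overlapped in the windows printed. The ISRE core was found in 4 of 14 class I windows and in 0 of 6 class II windows, against 9.76% of all genes. The kappa B element was likewise in 4 of 14 class I and 0 of 6 class II windows, against 0.903% of all genes, and the X box core in 0 of 14 and 2 of 6, against 6.16%. CCAAT was in 12 of 14 class I and 6 of 6 class II windows, against 41.1%. The 250 bases before each start are given 5′ to 3′ with matches in capitals, a match on the opposite strand being capitalised as it reads on the printed strand.
H2-K1 (chr17:34000348-34000597, minus strand): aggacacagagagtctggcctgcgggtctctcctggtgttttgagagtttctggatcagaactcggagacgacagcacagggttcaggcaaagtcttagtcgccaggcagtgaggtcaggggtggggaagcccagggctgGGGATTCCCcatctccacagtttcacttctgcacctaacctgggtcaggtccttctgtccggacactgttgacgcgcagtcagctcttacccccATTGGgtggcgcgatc
H2-D1 (chr17:35262844-35263093, plus strand): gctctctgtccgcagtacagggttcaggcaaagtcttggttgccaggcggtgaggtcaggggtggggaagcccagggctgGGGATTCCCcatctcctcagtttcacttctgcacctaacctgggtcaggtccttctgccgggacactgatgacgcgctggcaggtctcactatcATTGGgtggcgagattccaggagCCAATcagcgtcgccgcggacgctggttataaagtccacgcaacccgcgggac
B2m (chr2:122147437-122147686, plus strand): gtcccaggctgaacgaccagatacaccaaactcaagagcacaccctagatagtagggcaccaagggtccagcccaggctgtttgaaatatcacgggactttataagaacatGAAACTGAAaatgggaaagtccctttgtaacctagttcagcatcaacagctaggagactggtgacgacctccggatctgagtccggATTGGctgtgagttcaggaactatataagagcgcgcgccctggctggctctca
H2-T23 (chr17:36032702-36032951, minus strand): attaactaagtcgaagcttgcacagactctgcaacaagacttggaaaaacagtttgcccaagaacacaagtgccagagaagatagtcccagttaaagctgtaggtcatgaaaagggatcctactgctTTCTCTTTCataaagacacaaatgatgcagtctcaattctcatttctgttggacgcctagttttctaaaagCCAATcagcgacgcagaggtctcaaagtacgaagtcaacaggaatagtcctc
H2-Eb1 (chr17:34305617-34305866, plus strand): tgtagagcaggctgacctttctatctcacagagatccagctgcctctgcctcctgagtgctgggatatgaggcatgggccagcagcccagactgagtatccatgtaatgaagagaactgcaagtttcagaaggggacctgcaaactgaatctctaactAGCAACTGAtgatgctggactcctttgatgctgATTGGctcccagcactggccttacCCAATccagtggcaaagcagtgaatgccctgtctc
H2-Q10 (chr17:35469839-35470088, plus strand): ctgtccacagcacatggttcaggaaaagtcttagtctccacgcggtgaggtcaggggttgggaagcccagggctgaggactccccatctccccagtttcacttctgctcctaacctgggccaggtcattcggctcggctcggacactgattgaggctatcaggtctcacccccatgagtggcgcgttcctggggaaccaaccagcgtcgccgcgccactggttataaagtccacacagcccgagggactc
The H2-K1 and H2-D1 windows held the same kappa B letters, 110 and 170 bases before the annotated start. H2-Q10, a close relative, held none of the 4 motifs in the spellings searched. The H2-K1, H2-D1 and H2-Q10 windows all held the letters agtttcacttct, which the ISRE core as spelled here does not match on either strand. H2-Q10 is thus no example of a window free of interferon elements. B2m and H2-T23 held an ISRE core 139 and 123 bases before the start, and H2-Eb1 held the X box core at 92 bases with CCAAT on either strand after it. A match is a run of letters and shows no binding. Other spellings of these elements were not searched, so the counts may miss windows that hold them.

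Libraries held 9004515 to 20986735 reads. The tissue's own markers were present, with 8 of 8 brown adipocyte markers read in every group. Ucp1 is on this list, so sums and scores of these markers are not independent of genotype. Their summed level, in CPM (reads of a gene scaled to a common library size), was 19128 to 22186 under saline and 28556 to 39361 under isoproterenol in WT, and 19170.2 to 19848 and 3087 to 34898 in KO. Ucp1 itself stood at 2298 to 3449 CPM under saline and 8905 to 18458 under isoproterenol in WT, and at 409.8 to 1156 and 19.0 to 2129 in KO. Every KO library was below every WT library of its treatment, but reads from outside the deleted part may count, so this checks nothing about the genotype. KO isoproterenol libraries were the least alike, with correlations of 0.852 to 0.957 between them against 0.949 to 0.985 within the other groups, and results that rest on 1 of them are given without it.

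Class I genes rose with isoproterenol in KO tissue, and in the fit of all 16 libraries none of them was called as higher in WT tissue. In KO mice 13 of the 20 class I genes were higher after isoproterenol and 1 was lower (limma adjusted p under 0.05, over all genes), with a median difference of 1.01 on the log2 scale. Over all 15350 genes 23.8% were higher and 24.8% lower in that comparison, with a median of -0.00, and over the 35 members 16 were higher and 2 lower. In WT mice 0 of the 20 class I genes were higher and 1 was lower in limma, 2 having an unadjusted p under 0.05, with a median of -0.32. Over all genes 7.6% were higher and 8.98% lower in WT, and over the 35 members 1 was higher and 2 lower. With the 8 WT libraries fitted alone, H2-T24 was called as higher (0.47, limma adjusted p = 0.0393) and Erap1 joined H2-T22 as lower (-0.40, 0.00715), and without WT isoproterenol replicate 1, H2-T10 was (-1.21, 0.0496). Same-numbered WT libraries deviated together, and when they were also paired in the fit of the WT libraries alone (replicate block), 8 of 20 class I genes were called as lower and 1, H2-T24 (0.47, limma adjusted p = 0.0472), as higher, in a fit where 17.2% of all genes were lower. The 8 were H2-T22 (-0.98, limma adjusted p = 8.14e-05), H2-Q4 (-0.52, 0.00751), Erap1 (-0.40, 0.00759), H2-T10 (-0.91, 0.0123), Tapbp (-0.34, 0.0284), Tap1 (-0.38, 0.0359), H2-Q5 (-0.68, 0.0384) and B2m (-0.39, 0.0492). H2-K1 and H2-D1 were lower after isoproterenol in 4 of 4 WT pairs but not called in that fit (-0.24, limma adjusted p = 0.107, and -0.30, 0.0679). In all, 11 of 20 class I genes were lower in every WT pair, as 26.7% of all genes were. In bulk tissue, more cells of a type and more RNA per cell cannot be told apart. The plot of the responses shows both genotypes for each member.

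**Figure D1:**
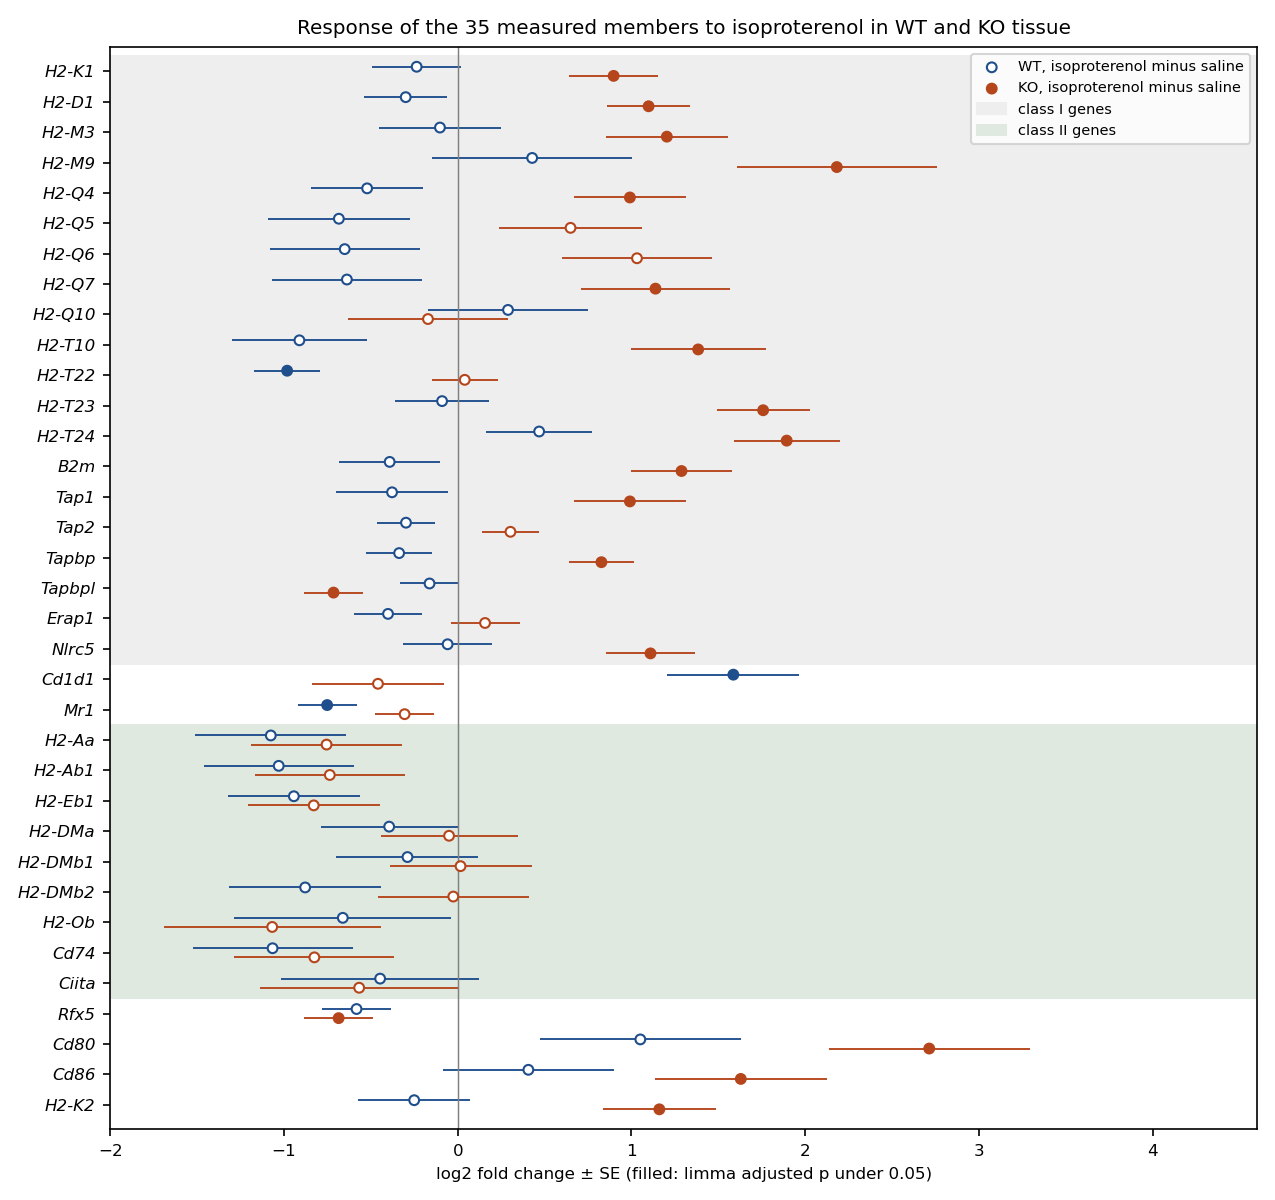
Difference between isoproterenol and saline (log2 fold change ± standard error, x axis) for each of the 35 measured genes, in WT (blue) and KO (orange) tissue, 4 libraries a group; filled points passed an adjusted p of 0.05 in limma. In KO, 13 of 20 class I genes (grey band) are filled to the right of 0, whereas class II genes (green band) lie mostly left of 0 in both genotypes and none of the 9 is filled.

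The classical heavy chains, H2-K1 (ENSMUSG00000061232) and H2-D1 (ENSMUSG00000073411), present peptides to cytotoxic T cells. H2-K1 had 732, 580.3, 578 and 468 CPM in WT saline, 609.9, 522, 458 and 409.8 in WT isoproterenol, 565, 618, 763 and 814 in KO saline and 1881, 769.6, 1539 and 1170.4 in KO isoproterenol, in replicates 1 to 4 in that order, as throughout. The WT groups overlapped, and in KO isoproterenol 3 libraries were above all KO saline libraries while replicate 2 was within their range. The difference was -0.24 (SE 0.26, limma adjusted p = 0.583) in WT and 0.90 (SE 0.26, limma adjusted p = 0.00973) in KO, the latter not called when the 2 KO groups were fitted alone (limma adjusted p = 0.0641). H2-D1 had 991, 702, 803 and 622 CPM in WT saline, 779, 667, 602 and 484 in WT isoproterenol, 793, 775, 1032 and 1001 in KO saline and 2535, 1345, 2165 and 1810.1 in KO isoproterenol. All KO isoproterenol libraries were above all KO saline libraries, 1964 ± 508 against 900.5 ± 135 CPM (SD, n = 4). That difference was 1.10 (SE 0.24, limma adjusted p = 0.00157), a 2.14-fold increase, and the WT difference was -0.30 (SE 0.24, limma adjusted p = 0.432).

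Of 11 non-classical heavy chains 7 rose in KO tissue after isoproterenol and none fell, where 23.8% of all genes rose and 24.8% fell. The smallest adjusted p of the 11 was that of H2-T23. H2-T23, whose product Qa-1 is a ligand of CD94 and NKG2 receptors on natural killer cells, had 71.3, 56.6, 53.6 and 46.1 CPM in WT saline, 69.2, 61.6, 48.1 and 37.9 in WT isoproterenol, 52.5, 54.3, 84.5 and 99.4 in KO saline and 385, 177, 236 and 194 in KO isoproterenol. The lowest KO isoproterenol library was above the highest of the 12 others, and the difference from KO saline was 1.76 (SE 0.27, limma adjusted p = 1.14e-04). H2-T24 had 10.4, 8.53, 11.2 and 10.2 CPM in WT saline, 16.04, 15.8, 13.4 and 10.9 in WT isoproterenol, 14.8, 10.95, 12.9 and 17.5 in KO saline and 115, 50.1, 41.4 and 29.2 in KO isoproterenol. Again the KO isoproterenol libraries did not overlap the others, and they differed from KO saline by 1.89 (SE 0.31, limma adjusted p = 1.79e-04). H2-M3, which presents formylated bacterial and mitochondrial peptides, had 11.8, 7.72, 7.86 and 7.26 CPM in WT saline, 9.83, 9.82, 7.76 and 5.22 in WT isoproterenol, 7.76, 7.95, 10.6 and 10.6 in KO saline and 46.3, 13.7, 25.7 and 12.1 in KO isoproterenol. Its KO difference was 1.20 (SE 0.35, limma adjusted p = 0.0104) without overlap, and replicate 1 carried the highest value.

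H2-T10 and H2-T22 encode relatives that some gamma-delta T cells recognise. H2-T10 had 6.30, 5.73, 4.23 and 3.36 CPM in WT saline, 4.75, 2.89, 2.31 and 1.30 in WT isoproterenol, 3.22, 2.71, 5.48 and 4.77 in KO saline and 18.4, 7.57, 10.3 and 7.39 in KO isoproterenol, and rose in KO by 1.38 (SE 0.39, limma adjusted p = 0.00853). H2-T22 had 158, 133, 122 and 116 CPM in WT saline, 83.1, 67.9, 64.8 and 53.5 in WT isoproterenol, 126, 149, 166 and 229 in KO saline and 219.8, 162, 151 and 147 in KO isoproterenol. It was the class I gene that fell in WT, by 0.98 on the log2 scale (SE 0.19, limma adjusted p = 0.00312) with no overlap, and its KO difference was 0.04 (SE 0.19, limma adjusted p = 0.881). Under isoproterenol all KO libraries were above all WT libraries, at 1.33 (SE 0.19, limma adjusted p = 1.06e-04). H2-T10 is annotated as a polymorphic pseudogene, as is H2-Q5.

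Heavy chains of the H2-Q cluster are close copies of each other and of H2-K1 and H2-D1, and how the authors' counting split shared reads is not given in the sources used here, so their separate values are uncertain. H2-Q4 had 90.9, 86.8, 56.4 and 52.1 CPM in WT saline, 72.9, 52.7, 47.7 and 29.8 in WT isoproterenol, 67.2, 46.7, 94.7 and 80.2 in KO saline and 233, 85.6, 152 and 123 in KO isoproterenol, a KO difference of 0.99 (SE 0.32, limma adjusted p = 0.0193). H2-Q7, which encodes the Qa-2 antigen, had 14.1, 13.8, 7.21 and 7.10 CPM in WT saline, 10.9, 6.64, 7.69 and 3.05 in WT isoproterenol, 11.4, 8.95, 15.9 and 14.4 in KO saline and 51.9, 12.7, 35.8 and 23.3 in KO isoproterenol, a KO difference of 1.14 (SE 0.43, limma adjusted p = 0.0395). The highest KO isoproterenol value of both genes was in replicate 1, and replicate 2 was inside or near the KO saline range. The H2-Q4 call was lost without KO saline replicate 2 (0.80, adjusted p = 0.0689) or KO isoproterenol replicate 1 (0.74, 0.0601), all by limma. That of H2-Q7 was lost in 5 of 8 fits with 1 library left out: KO saline replicate 1, 2 or 4 (limma adjusted p = 0.0776, 0.106 and 0.0542) or KO isoproterenol replicate 1 or 3 (0.120 and 0.0981), and with the 2 KO groups alone (0.0600). H2-Q5 and H2-Q6 were not called in KO, at 0.65 and 1.03 on the log2 scale, H2-Q6 being called without KO isoproterenol replicate 2 (1.35, limma adjusted p = 0.0197). H2-M9 had 2.69, 1.67, 1.54 and 1.45 CPM in WT saline, 2.40, 4.93, 1.35 and 2.07 in WT isoproterenol, 4.43, 0.874, 5.19 and 3.39 in KO saline and 4.64, 15.4, 22.9 and 17.7 in KO isoproterenol, a KO difference of 2.18 (SE 0.58, limma adjusted p = 0.00587), and here replicate 1 was the lowest of its group.

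Among the 6 genes of class I assembly, 3 rose and 1 fell in KO, and none was called in WT in the fit of all 16 libraries (limma, 0 with an unadjusted p under 0.05 in WT). In that fit 23.8% of all genes were higher and 24.8% lower in KO, and 7.6% and 8.98% in WT. B2m (ENSMUSG00000060802), the light chain common to class I molecules, had 969, 653, 701 and 589 CPM in WT saline, 624, 675, 534 and 392 in WT isoproterenol, 695, 664, 1028 and 1058 in KO saline and 3079.9, 1255, 2546 and 1816 in KO isoproterenol. No KO isoproterenol library was as low as any of the 12 others, at 2174 ± 803 CPM against 862 ± 210.5 in KO saline (SD, n = 4), a difference of 1.29 (SE 0.29, limma adjusted p = 0.00220). In WT the difference was -0.39 (SE 0.29, limma adjusted p = 0.401). Tapbp encodes tapasin, which holds the empty class I molecule to the transporter. It had 202, 190.5, 194 and 169.7 CPM in WT saline, 185, 158, 135 and 126 in WT isoproterenol, 137, 159, 179.9 and 193 in KO saline and 418, 289.8, 295 and 210.3 in KO isoproterenol, and rose in KO without overlap, by 0.83 (SE 0.19, limma adjusted p = 0.00227).

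Tap1, a subunit of the peptide transporter, had 48.5, 47.5, 48.0 and 32.4 CPM in WT saline, 47.6, 39.8, 30.9 and 21.4 in WT isoproterenol, 38.8, 36.6, 65.3 and 51.3 in KO saline and 193, 73.9, 81.9 and 63.7 in KO isoproterenol. Its KO difference was 0.99 (SE 0.32, limma adjusted p = 0.0185). With the 2 KO groups alone it was not called (limma adjusted p = 0.0582), nor without KO saline replicate 1 (0.90, adjusted p = 0.0511) or replicate 2 (0.87, 0.0572), and without KO isoproterenol replicate 1, which held the highest value, it was 0.64 and still called. Tap2, the other subunit, and Erap1, which trims peptides, were not called in either genotype, at 0.30 and 0.16 in KO. Tapbpl encodes a peptide editor related to tapasin and moved the opposite way. It had 31.9, 33.5, 34.2 and 34.5 CPM in WT saline, 31.0, 23.03, 27.4 and 41.2 in WT isoproterenol, 37.5, 33.5, 40.7 and 48.4 in KO saline and 30.9, 22.1, 22.9 and 21.7 in KO isoproterenol, and fell in KO by 0.71 on the log2 scale (SE 0.17, limma adjusted p = 0.00281), all 4 isoproterenol libraries being below all saline libraries.

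Nlrc5 (ENSMUSG00000074151), the class I transactivator, rose in KO as well. Its levels were 26.1, 23.6, 28.7 and 20.5 CPM in WT saline, 26.9, 22.8, 25.4 and 19.8 in WT isoproterenol, 29.9, 26.0, 46.8 and 37.0 in KO saline and 142, 62.3, 61.7 and 53.5 in KO isoproterenol. The WT groups were alike in range, with a difference of -0.06 (SE 0.26, limma adjusted p = 0.908). In KO the isoproterenol libraries lay above the saline libraries, the difference being 1.11 (SE 0.26, limma adjusted p = 0.00260). Replicate 1 was far above the other 3, and without it the difference was 0.79 and was still called. In all, 8 class I genes had every KO isoproterenol library above every KO saline library, as 18.1% of all genes had. The plot of levels sets 4 class I and 4 class II genes side by side.

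**Figure D2:**
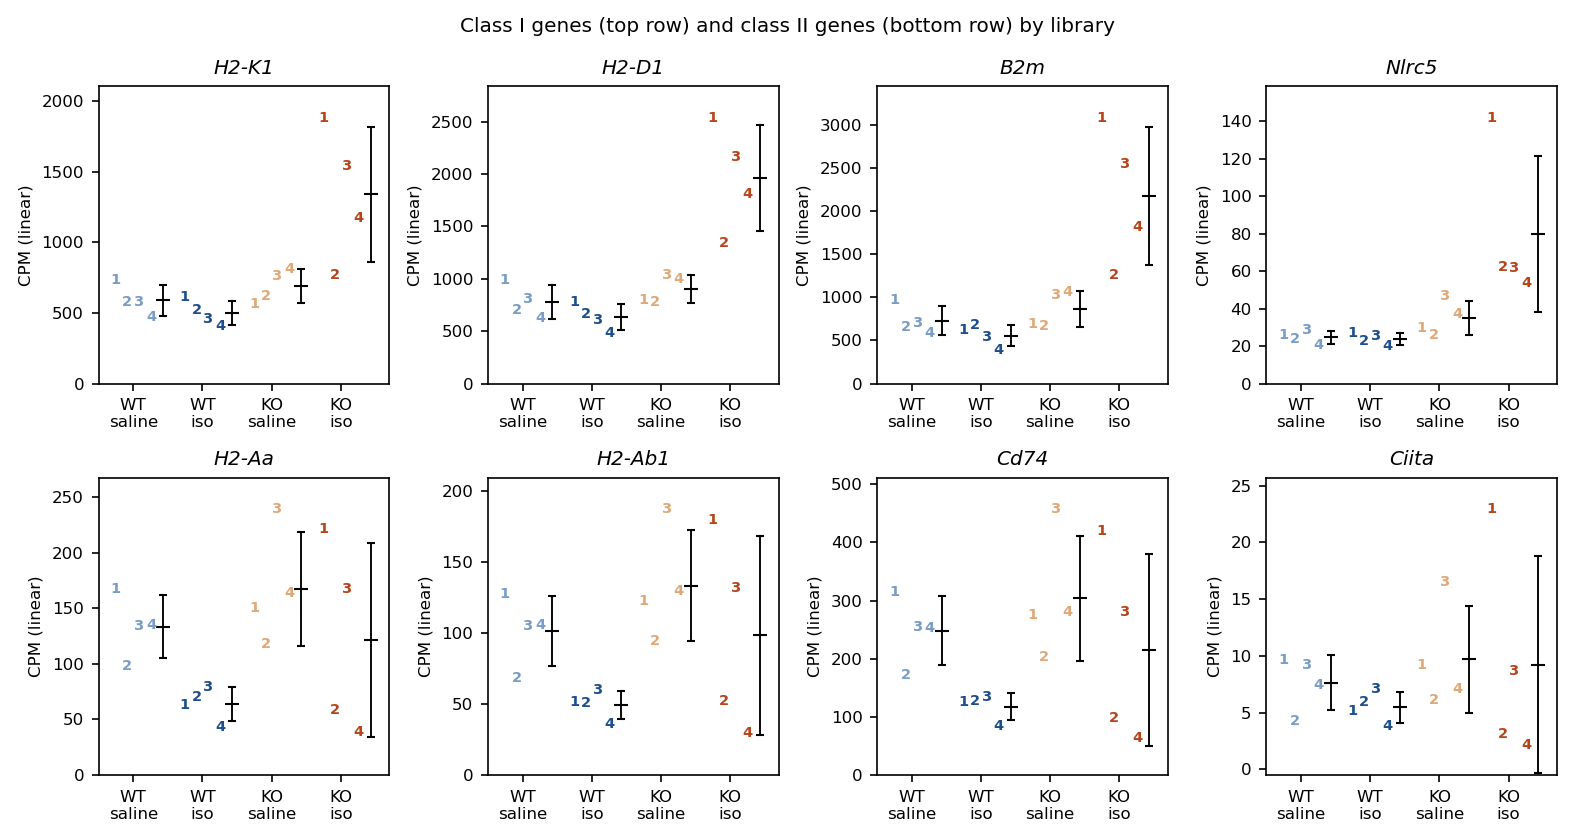
CPM (linear y axis) of 4 class I genes (top row) and 4 class II genes (bottom row) in each library, drawn as its replicate number, with the mean ± SD of the 4 libraries of a group to the right. The 4 KO isoproterenol libraries are the highest of all for H2-D1, B2m and Nlrc5, whereas in the bottom row replicates 1 and 3 are high and replicates 2 and 4 low.

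Between genotypes under isoproterenol, 18 of the 20 class I genes were higher in KO and 1, H2-Q10, was lower, with a median of 1.50. Over all genes 21.6% were higher and 23.1% lower, and over the 35 members 22 were higher and 2 lower. The 12 heavy chains other than H2-Q10 were all higher in KO, from 1.33 for H2-T22 to 2.44 for H2-M9. B2m differed by 1.92 (SE 0.29, limma adjusted p = 1.71e-04), a 3.77-fold difference, H2-D1 by 1.62 and Nlrc5 by 1.64. This comparison uses the same KO isoproterenol libraries as the one above and is no separate evidence. The class I gene not called was Tapbpl, at -0.31 (SE 0.17, limma adjusted p = 0.147), and it was called as lower without WT isoproterenol replicate 2 (-0.44, 0.0486) or KO isoproterenol replicate 1 (-0.43, 0.0467). Leaving out 1 library ended the calls of Erap1 (in 5 of 8 fits; WT isoproterenol replicate 1, 2 or 3, or KO isoproterenol replicate 1 or 3) and Tap2 (in 2 of 8; WT isoproterenol replicate 3 or 4), with limma adjusted p up to 0.0679 and 0.0534, and fitting the 2 isoproterenol groups alone ended both (0.122 and 0.0527).

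The difference between the KO and the WT response to isoproterenol was tested for each gene as an interaction. It was called for 12 of 20 class I genes, all more positive in KO, with a median of 1.35. Over all genes 10.9% were called in that direction and 13.8% in the other, and over the 35 members 13 and 1. The interaction was 1.85 (SE 0.38, limma adjusted p = 0.00470) for H2-T23, 1.68 (SE 0.41, limma adjusted p = 0.0108) for B2m and 1.40 (SE 0.34, limma adjusted p = 0.00966) for H2-D1. H2-T10, H2-T22 and Tapbp, the other class I genes called in each of the 16 fits with 1 library left out, stood at 2.29, 1.02 and 1.16. H2-K1 (1.13), H2-Q4 (1.51), H2-Q7 (1.78), H2-T24 (1.42), Tap1 (1.37) and Nlrc5 (1.17) kept their sign but each lost the call in at least 4 of the 16, with limma adjusted p up to 0.0924. Leaving out replicate 1 of WT saline, 4 of WT isoproterenol or 2 of KO saline ended all 6 calls. Leaving out replicate 2 or 3 of WT saline, 2 or 3 of WT isoproterenol, 1, 3 or 4 of KO saline, or 1 or 3 of KO isoproterenol ended at least 1 of them. Other class I genes came to be called in some fits: Tap2 without WT saline replicate 4, WT isoproterenol replicate 1 or KO isoproterenol replicate 2, H2-Q6 without the last 2 of these, H2-M3 without KO isoproterenol replicate 2 or 4, Tapbpl without WT isoproterenol replicate 2 or KO isoproterenol replicate 1, H2-M9 without the latter, and Erap1 without KO isoproterenol replicate 4 (limma adjusted p = 0.0154 to 0.0490). With voom precision weights H2-Q7 and H2-T24 lost the call (limma adjusted p = 0.0714 and 0.0594).

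No class II gene was called as higher or lower after isoproterenol in either genotype in the fit of all 16 libraries. By that fit 7.6% of all genes were higher and 8.98% lower in WT, and 23.8% and 24.8% in KO. In WT 9 of 9 had a negative difference after isoproterenol, with a median of -0.88, yet 0 of 9 were called in limma and 4 had an unadjusted p under 0.05. In KO 8 of 9 were negative, with a median of -0.74, 0 of 9 were called in limma and 1 had an unadjusted p under 0.05. That KO median was -1.16 without KO isoproterenol replicate 1, -0.27 without replicate 4, where 6 of 9 were negative, and -0.52 to -0.99 without any other KO library. The interaction was called for 10.9% of all genes as more positive in KO and for 13.8% as more negative. For class II genes it had a median of 0.29, with 0 of 9 called and 0 with an unadjusted p under 0.05 in limma. Leaving out 1 library turned its sign: the median was -0.11, with 8 of 9 negative, without KO isoproterenol replicate 1, 0.04 without replicate 3 and 0.70, with 9 of 9 positive, without replicate 4. It was also moved by over 1.5 times when WT saline replicate 1 (0.14), WT isoproterenol replicate 4 (0.13), KO isoproterenol replicate 2 (0.48), KO saline replicate 2 (0.14) or KO saline replicate 3 (0.46) was left out.

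The 3 class II chains were H2-Aa, H2-Ab1 and H2-Eb1. H2-Aa and H2-Ab1 form the I-A molecule, which shows peptides to helper T cells. H2-Eb1 encodes the beta chain of I-E, and the gene of its partner chain, H2-Ea, was not among the 35 measured members. H2-Eb1 RNA is thus no reading of I-E molecules. H2-Aa (ENSMUSG00000036594) had 167, 97.9, 134 and 135 CPM in WT saline, 63.2, 69.8, 79.0 and 43.2 in WT isoproterenol, 150.0, 118, 239 and 163 in KO saline and 222, 58.8, 168 and 38.9 in KO isoproterenol. H2-Ab1 had 127, 68.1, 105 and 105 CPM in WT saline, 51.2, 50.4, 59.9 and 35.6 in WT isoproterenol, 122, 94.1, 187 and 129.7 in KO saline and 179.6, 52.1, 131 and 29.4 in KO isoproterenol. H2-Eb1 had 149, 95.9, 125 and 123 CPM in WT saline, 59.8, 68.2, 81.3 and 48.7 in WT isoproterenol, 149.8, 109.9, 214 and 155 in KO saline and 178, 55.6, 142 and 39.2 in KO isoproterenol. For each of the 3 the highest WT isoproterenol library was below the lowest WT saline library, and the differences were -1.08 (SE 0.43, limma adjusted p = 0.105), -1.03 (adjusted p = 0.119) and -0.94 (adjusted p = 0.105). Cd74 (ENSMUSG00000024610), the invariant chain that guides class II molecules to the endosome, had 315, 171, 254 and 253 CPM in WT saline, 126, 128, 133 and 84.3 in WT isoproterenol, 274, 204, 457 and 281 in KO saline and 419, 98.8, 279.6 and 62.8 in KO isoproterenol. It was likewise lower in every WT isoproterenol library, 118 ± 22.6 against 248 ± 58.8 CPM (SD, n = 4), at -1.07 (SE 0.46, limma adjusted p = 0.130). These 4 class II genes, H2-T22 and Erap1 were the 6 members with such a separation in WT, as 16.6% of all genes had.

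In the fit of all 16 libraries the wide spread among KO isoproterenol libraries enters the error of the WT comparison. When the 8 WT libraries were fitted alone, H2-Aa, H2-Ab1, H2-Eb1 and Cd74 were called as lower (limma adjusted p = 0.00283, 0.00365, 0.00192 and 0.00245), in a comparison where 15.8% of all genes were called as lower. The same 4 of the 9 were called with those libraries paired by number (0.00443, 0.00343, 0.00237 and 0.00246 in limma), where 17.2% of all genes were lower. The loading genes H2-DMa and H2-DMb1, whose product exchanges peptides on class II, were at -0.39 and -0.29 in WT and at -0.05 and 0.02 in KO. H2-DMb2 was at -0.88 in WT and -0.03 in KO, and H2-Ob, a subunit of the inhibitor of that exchange, at -0.66 and -1.07. The KO values of H2-DMa and H2-DMb2 turned positive, to 0.13 and 0.16, when libraries were scaled by their totals, a scaling under which the all-gene median went from -0.00 to 0.18.

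The class II transactivator Ciita (ENSMUSG00000022504) was read at low levels, with 9.66, 4.29, 9.16 and 7.43 CPM in WT saline, 5.13, 5.91, 7.07 and 3.82 in WT isoproterenol, 9.17, 6.12, 16.5 and 7.06 in KO saline and 22.95, 3.12, 8.70 and 2.18 in KO isoproterenol. The groups overlapped in each comparison, with differences of -0.45 (SE 0.57, limma adjusted p = 0.643) in WT and -0.57 (SE 0.57, limma adjusted p = 0.433) in KO, where Nlrc5 had risen. In KO isoproterenol Ciita ran from 2.18 to 22.95 CPM, a spread that covered the range of every other group.

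The KO isoproterenol libraries split for class II genes. H2-Aa, H2-Ab1, H2-Eb1, Cd74, Ciita and the loading genes were each high in replicates 1 and 3 and low in replicates 2 and 4. The class II score, the average over the 9 genes of log2 CPM with the 16-library mean of each gene set to 0, was 1.24, -0.79, 0.64 and -1.44 in replicates 1 to 4, while the class I score, made the same way from the 20 class I genes, was positive in all 4 at 1.33, 0.36, 0.92 and 0.57. In KO saline the class II score lay between 0.10 and 0.91. Without KO isoproterenol replicate 1, 6 class II genes were called as lower in KO after isoproterenol, in a fit where 23.3% of all genes were: H2-Aa (-1.16, limma adjusted p = 0.0225), H2-Ab1 (-1.14, 0.0236), H2-Eb1 (-1.18, 0.0103), H2-Ob (-1.63, 0.0265), Cd74 (-1.28, 0.0158) and Ciita (-1.21, 0.0355). Without replicate 3, H2-Eb1 alone of the 9 was called (-1.07, limma adjusted p = 0.0377).

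Between genotypes under isoproterenol, where 21.6% of all genes were higher in KO and 23.1% lower, 8 of 9 class II genes were positive. Their median was 0.62, and 0 of 9 were called in limma, 1 having an unadjusted p under 0.05. That median was 0.22 without KO isoproterenol replicate 1, 0.36 without replicate 3 and 0.98 without replicate 4. Cd74 differed by 0.50 (SE 0.46, limma adjusted p = 0.394) and H2-Aa by 0.62 (SE 0.43, limma adjusted p = 0.257). When KO isoproterenol replicate 4, the library lowest for class II, was left out, 5 were called as higher in KO, in a fit where 24.6% of all genes were: H2-Aa (1.06, limma adjusted p = 0.0273), H2-Ab1 (1.14, 0.0137), H2-Eb1 (0.82, 0.0490), H2-DMa (1.18, 0.00585) and H2-DMb1 (1.33, 0.00778). Without replicate 2, H2-DMb1 alone was called (1.18, limma adjusted p = 0.0416). Which class II genes were called thus turned on single KO isoproterenol libraries, whereas H2-D1, H2-T23, B2m and Nlrc5 were called in all 8 fits of this kind in both comparisons.

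In KO after isoproterenol, where 23.8% of all genes were higher and 24.8% lower, all 12 macrophage markers were higher. Their summed level was 286 to 661 CPM under saline and 630.2 to 1126 under isoproterenol in WT, and 384 to 682 and 1135 to 8325 in KO. Their score in KO isoproterenol was 2.91, 1.47, 2.66 and 0.67, highest in the same replicates 1 and 3 as the class II score. Of 12 conventional dendritic cell markers 3 were higher and 1 lower in KO, a share of higher genes near that of all genes, with scores of 1.19, -0.12, 1.06 and -0.54. Their summed level was 155 to 248 CPM under saline and 136 to 202 under isoproterenol in WT, and 158 to 223 and 165 to 411 in KO. Of 6 B cell markers 1 was higher and 3 were lower in KO, with scores of -0.11, -1.13, 0.28 and -1.34 and summed levels of 4.36 to 15.7 CPM, against 6.09 to 11.5 in KO saline. The B cell sum was 7.72 to 13.7 CPM in WT saline and 3.59 to 8.05 in WT isoproterenol. No gene of these lists was at 0 reads in any group, and 2 further B cell markers, Blk and Fcmr, had no value.

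In WT after isoproterenol, where class II values were lower, 3 of 12 macrophage markers were higher and none lower, against 7.6% and 8.98% of all genes, 0 of 12 dendritic cell markers were called in limma, 2 having an unadjusted p under 0.05, and 1 of 6 B cell markers was lower. Further lists moved in KO, where class I genes rose: all 6 markers of recruited monocytes and 5 of 6 of resident macrophages were higher after isoproterenol, and 5 of 8 brown adipocyte markers were lower. In WT 2 of 6 recruited monocyte and 3 of 6 resident macrophage markers were higher too, and 0 of 8 brown adipocyte markers were called. No class I gene of the 20 was called as higher there in the fit of all 16 libraries. In KO, where 23.8% of all genes were higher and 24.8% lower, 0 of 5 measured T cell markers were called in limma, 1 having an unadjusted p under 0.05. The T cell markers Cd3d, Cd3e and Cd8b1 had no value. Summed, the 5 measured ones were low, at 3.79 to 25.6 CPM in KO saline and 3.48 to 14.3 CPM in KO isoproterenol. Of 5 measured natural killer cell markers 0 were called in KO in limma, 0 having an unadjusted p under 0.05, and Ncr1 had no value. Their summed level was 1.76 to 15.1 CPM under saline and 1.59 to 2.07 under isoproterenol in WT, and 1.59 to 7.22 and 2.08 to 24.6 in KO, the last in replicate 1. The part of these cells in the class I and class II results was not tested.

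**Figure D3:**
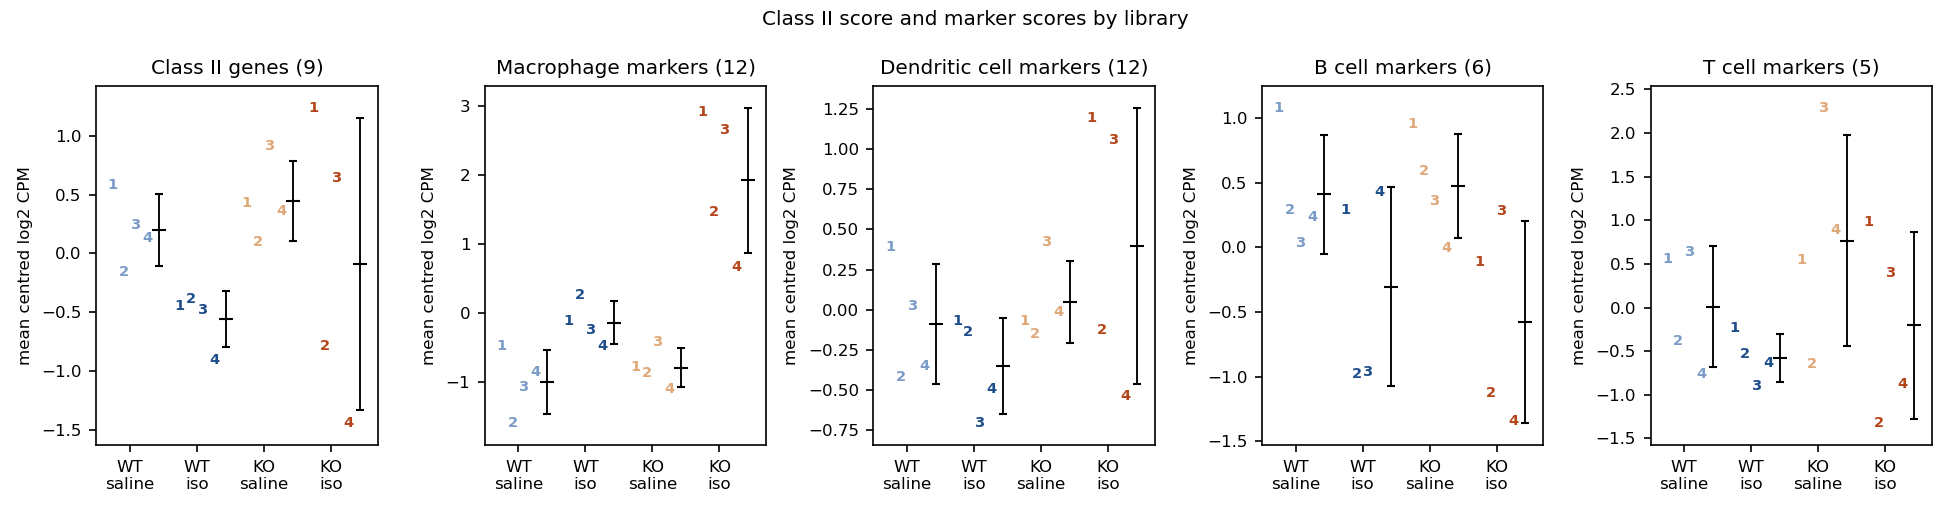
Score of the 9 class II genes and of the macrophage, conventional dendritic cell, B cell and T cell marker lists (mean centred log2 CPM, y axis; each panel has its own scale) in every library, drawn as its replicate number, with the mean ± SD of each group. In KO isoproterenol replicates 1 and 3 stand above replicates 2 and 4 in all 5 panels, and the class II score runs from -1.44 to 1.24.

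Class II was set against class I within each library, which removes the library's scale. The class II score minus the class I score was 0.39 ± 0.28 (SD, n = 4) in WT saline, -0.06 ± 0.19 in WT isoproterenol, 0.56 ± 0.24 in KO saline and -0.88 ± 0.88 in KO isoproterenol. In KO isoproterenol it was -0.10, -1.15, -0.28 and -2.01 in replicates 1 to 4, each below the lowest KO saline library at 0.22. It moved by -0.46 in WT and by -1.44 in KO after isoproterenol, and the difference of the 2 responses, -0.98, is given with no test. Without 1 library at a time the KO value ran from -1.70 to -1.07, the WT value from -0.595 to -0.365 and the difference of responses from -1.25 to -0.610.

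Pairs of genes of like role were then compared by reads. Their ratio was tested between groups with an exact two-sided permutation test over the 70 arrangements of 4 against 4 libraries, whose smallest possible p is 0.0286, and with Benjamini-Hochberg adjustment over the 12 comparisons. Reads are not corrected for gene length, so the ratios are read only for how they move between groups. Reads of Cd74 were 32.5, 26.2, 36.2 and 43.0% of those of B2m in WT saline, 20.1, 18.9, 25.0 and 21.5% in WT isoproterenol, 39.5, 30.6, 44.4 and 26.5% in KO saline and 13.6, 7.87, 10.98 and 3.46% in KO isoproterenol. The groups did not overlap in WT, in KO or between genotypes under isoproterenol, with log2 differences of -0.67, -2.11 and -1.41 (each exact p = 0.0286, adjusted p = 0.0571). Under saline the genotypes overlapped, at 0.03 (exact p = 0.886, adjusted p = 0.886).

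Reads of H2-Ab1 were 15.2 to 24.5% of those of H2-K1 in KO saline, against 2.52 to 9.55% after isoproterenol, a log2 difference of -1.63 (exact p = 0.0286, adjusted p = 0.0571). In WT they were 11.7 to 22.5% and 8.40 to 13.1%, with overlap, at -0.79 (exact p = 0.0571, adjusted p = 0.0980). Ciita relative to Nlrc5 was 19.1 to 35.3% in KO saline, against 4.07 to 16.2% after isoproterenol, at -1.68 (exact p = 0.0286, adjusted p = 0.0571). In WT that ratio was 18.2 to 36.9% and 19.0 to 27.8%, at -0.39 (exact p = 0.229, adjusted p = 0.305). Between genotypes under isoproterenol the differences were -0.68 for H2-Ab1 over H2-K1 (exact p = 0.171, adjusted p = 0.257) and -1.46 for Ciita over Nlrc5 (exact p = 0.0286, adjusted p = 0.0571). No ratio passed 0.05 after adjustment over the 12. With 4 libraries a group, 7 of the 12 would have to stand at the smallest possible p for any to pass, and 6 did. The plot of ratios shows every library.

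**Figure D4:**
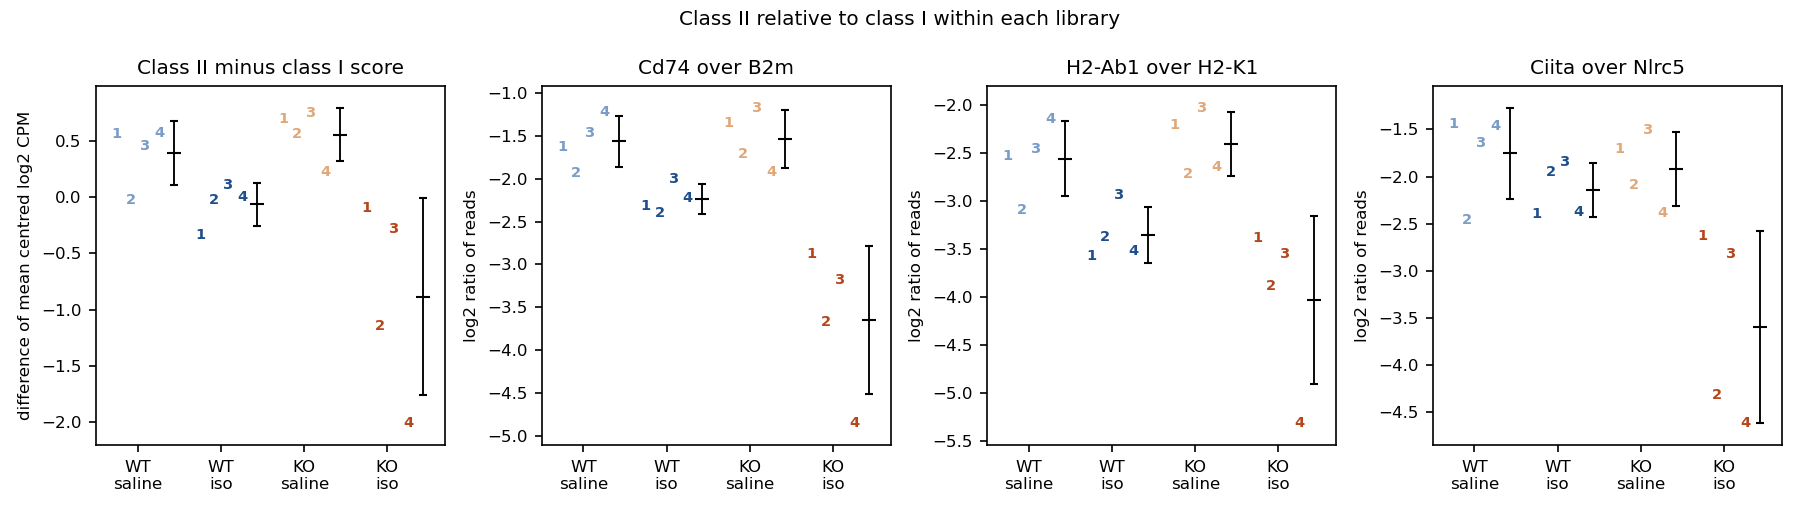
Class II score minus class I score (left, difference of mean centred log2 CPM) and log2 ratio of reads of Cd74 to B2m, H2-Ab1 to H2-K1 and Ciita to Nlrc5 in each library, drawn as its replicate number, with the mean ± SD of the 4 libraries of a group. KO isoproterenol libraries are below all KO saline libraries in every panel, and replicate 4 is the lowest in each.

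Cd1d1 (ENSMUSG00000028076), a class I-like molecule that shows lipids to natural killer T cells, was the member with the opposite pattern. It had 169.8, 198, 183 and 178 CPM in WT saline, 597, 483, 468 and 658 in WT isoproterenol, 159, 213, 152 and 185 in KO saline and 57.3, 81.3, 175 and 328 in KO isoproterenol. Every WT isoproterenol library was far above every WT saline library, 552 ± 91.4 against 182 ± 11.8 CPM (SD, n = 4), a 3.00-fold increase of 1.59 (SE 0.38, limma adjusted p = 0.0110). In KO the libraries ran from 57.3 to 328 CPM, with replicates 1 and 2 below all KO saline libraries and replicate 4 above them, and the difference was -0.46 (SE 0.38, limma adjusted p = 0.336). Without that replicate 4, Cd1d1 was called as lower in KO (-0.91, limma adjusted p = 0.0113). The genotypes differed under isoproterenol by -2.09 (SE 0.38, limma adjusted p = 5.43e-04), and the interaction was -2.05 (SE 0.54, limma adjusted p = 0.0148), the only member called in that direction. The order of the KO isoproterenol libraries for Cd1d1 was that of their brown adipocyte score, -3.89, -1.29, -0.36 and 0.43, whose part in the result was not tested. Ucp1, which counts in that score, rose in the same order, at 19.0, 268, 848 and 2129 CPM.

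Mr1, which shows vitamin B metabolites to mucosal-associated T cells, had 9.57, 13.0, 16.05 and 14.7 CPM in WT saline, 9.74, 6.89, 7.69 and 7.04 in WT isoproterenol, 14.1, 14.7, 15.8 and 15.8 in KO saline and 13.3, 13.8, 11.7 and 10.3 in KO isoproterenol. It fell in WT by 0.75 on the log2 scale (SE 0.17, limma adjusted p = 0.00789), where WT saline replicate 1 was within the isoproterenol range and the other 3 were above it. In KO the difference was -0.31 (SE 0.17, limma adjusted p = 0.149) and was not called. Yet all KO isoproterenol libraries were below all KO saline libraries for Mr1, as for 2967 of 15350 genes. KO was higher than WT under isoproterenol by 0.65 (limma adjusted p = 0.00598).

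H2-Q10 (ENSMUSG00000067235), known as a secreted class I molecule made mainly by liver, was called between genotypes under isoproterenol and not between treatments. It had 54.3, 94.4, 217 and 115 CPM in WT saline, 139, 99.6, 95.3 and 215 in WT isoproterenol, 16.8, 33.6, 39.0 and 54.3 in KO saline and 15.9, 21.5, 49.2 and 44.2 in KO isoproterenol. Under isoproterenol all KO libraries were below all WT libraries, at -2.15 (SE 0.46, limma adjusted p = 0.00174). Under saline the highest KO and the lowest WT library met at 54.3 CPM and the difference was -1.69 (SE 0.46, limma adjusted p = 0.352). With treatment it moved by 0.29 (SE 0.46, limma adjusted p = 0.721) in WT and -0.17 (SE 0.46, limma adjusted p = 0.786) in KO, the latter turning to 0.01 when libraries were scaled by their totals. It was the 1 member with an unadjusted p under 0.05 for genotype under saline, where limma called 0 of 35 members and 15 of 15350 genes, 0.0977% of all in either direction. The 9 class II genes had a median genotype difference of 0.30 under saline and the 20 class I genes one of 0.17.

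The costimulatory ligands Cd80 and Cd86, which bind CD28 and CTLA-4 on T cells, rose in KO. Cd80 had 1.10, 0.316, 0.698 and 0.540 CPM in WT saline, 0.800, 1.59, 1.55 and 1.23 in WT isoproterenol, 1.24, 1.21, 0.762 and 0.632 in KO saline and 20.3, 4.73, 7.60 and 1.83 in KO isoproterenol. All KO isoproterenol libraries were above all KO saline libraries, at 2.71 (SE 0.58, limma adjusted p = 0.00145). Cd86 had 2.78, 1.67, 2.47 and 1.70 CPM in WT saline, 3.15, 2.65, 3.07 and 2.35 in WT isoproterenol, 1.95, 2.29, 3.74 and 1.90 in KO saline and 24.5, 7.75, 6.40 and 2.38 in KO isoproterenol, and its KO difference was 1.63 (SE 0.49, limma adjusted p = 0.0132) with replicate 4 inside the KO saline range. For both, replicate 1 was the highest, and without it the KO differences were 2.13 and 1.05. Cd86 was not called in KO with the 2 KO groups alone (limma adjusted p = 0.0743). Its genotype difference under isoproterenol, 1.40 (limma adjusted p = 0.0314), was lost when any of WT isoproterenol replicates 2, 3 and 4 or KO isoproterenol replicates 1 and 2 was left out (limma adjusted p = 0.0526 to 0.0865), with the 2 isoproterenol groups alone (0.108) and with voom precision weights (0.0692). The interaction of either gene was called only without KO isoproterenol replicate 4, at 2.24 for Cd80 and 1.76 for Cd86 (limma adjusted p = 0.0194 for both). Their levels followed the macrophage score in part, with replicate 4 the lowest in all 3, and that part was not tested.

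**Figure D5:**
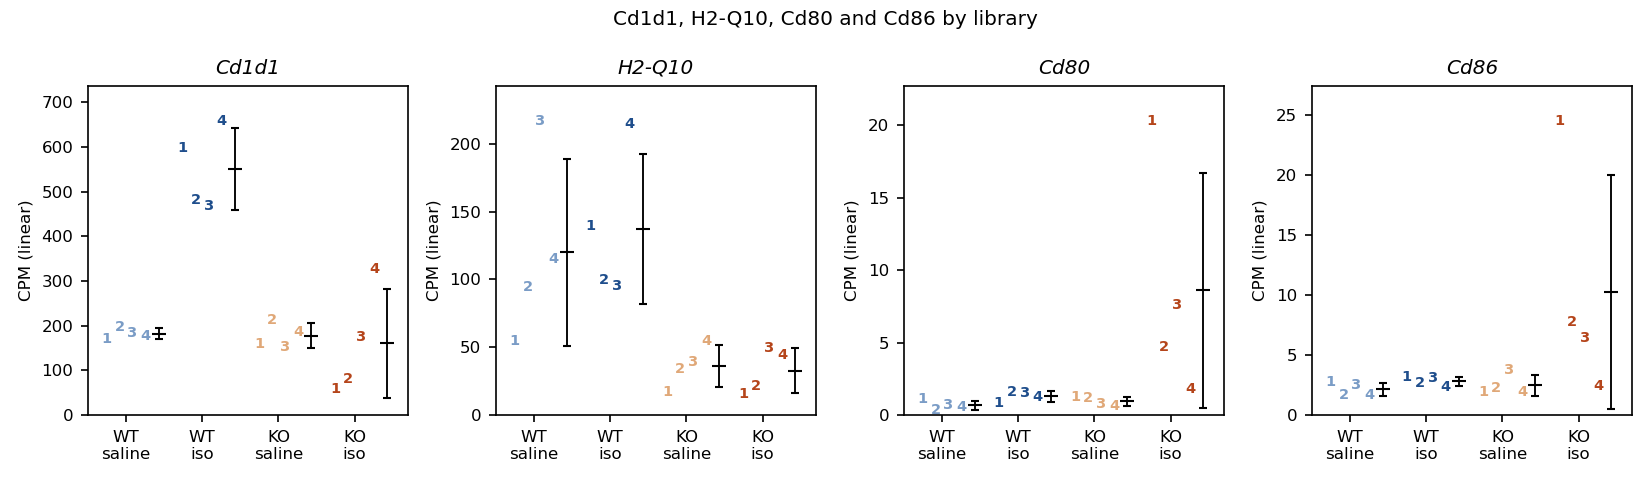
CPM (linear y axis) of Cd1d1, H2-Q10, Cd80 and Cd86 in each library, drawn as its replicate number, with the mean ± SD of the 4 libraries of a group. Cd1d1 is highest in WT isoproterenol, the mean of H2-Q10 is lower in both KO groups than in the WT groups, and Cd80 and Cd86 reach 20.3 and 24.5 CPM in KO isoproterenol replicate 1.

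Rfx5, a subunit of the factor that binds the X box of both classes, fell in KO by 0.69 on the log2 scale (SE 0.20, limma adjusted p = 0.00977), from 9.88 to 15.9 CPM to 5.90 to 9.35 CPM without overlap, but was not called when libraries were scaled by their totals (limma adjusted p = 0.0505). In WT it was -0.58 (SE 0.20, limma adjusted p = 0.0552), and it was called with the WT groups fitted alone (-0.58, limma adjusted p = 0.0229) or alone and paired (0.0377), and a fit lacking replicate 1 of either WT group called it (-0.69, 0.0406 lacking the saline one, and -0.70, 0.0390 lacking the other). H2-K2, annotated as a transcribed pseudogene near H2-K1, had 10.9, 8.08, 9.63 and 5.35 CPM in WT saline, 7.20, 7.78, 8.31 and 4.87 in WT isoproterenol, 5.06, 5.12, 7.80 and 8.90 in KO saline and 27.5, 14.7, 12.5 and 8.90 in KO isoproterenol. It rose in KO by 1.16 (SE 0.32, limma adjusted p = 0.00824), and reads that it shares with H2-K1 cannot be separated here. Its interaction, 1.41 (limma adjusted p = 0.0362), was lost in 8 of 16 fits with 1 library left out: replicates 1, 2 and 3 of WT saline, 1 and 4 of WT isoproterenol, 1 and 2 of KO saline, and 2 of KO isoproterenol (limma adjusted p up to 0.0790), and with voom precision weights (0.0665). Without WT isoproterenol replicate 4 its genotype difference was lost too (0.91, limma adjusted p = 0.05005).

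Other genes of the pathway were read from a list of 39, of which 37 had a value (Ifng and Pdcd1lg2 had none). After isoproterenol 23 were higher and 2 lower in KO, where 23.8% of all genes were higher and 24.8% lower, and 3 were higher and none lower in WT, near the 7.6% of all genes that were higher there. The list of 8 class II processing genes had 7 higher in KO, where 0 of 9 class II genes were called. Besides genes that prepare antigen, it holds March1, which was among the 7, and Cd83, which was not. The protease Ctss, which degrades the invariant chain, differed by 4.32 (SE 0.62, limma adjusted p = 7.40e-05). It stood at 2285, 512, 1217 and 275 CPM in KO isoproterenol replicates 1 to 4, in the order of the macrophage score, 2.91, 1.47, 2.66 and 0.67, whose part in the rise of these genes was not tested. The asparaginyl endopeptidase Lgmn differed by 3.33 (SE 0.33, limma adjusted p = 2.63e-06), and Ctsl by 2.91 (SE 0.23, limma adjusted p = 4.25e-07). Ifi30, a thiol reductase of the lysosome, differed by 2.92, and March1, a ligase that removes class II from the surface, by 2.31. In WT 0 of these 8 were called in limma, 1 having an unadjusted p under 0.05.

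For class I supply, 3 of 3 chaperones of peptide loading were higher in KO, Calr by 1.22 (SE 0.24, limma adjusted p = 7.42e-04), and Canx was also higher in WT, by 0.53 (limma adjusted p = 0.0376). Of 5 genes of the immunoproteasome and its activator, which cut peptides suited to class I, 1 was higher in KO, Psmb8 at 1.25 (SE 0.38, limma adjusted p = 0.0138), and 1 in WT, Psme2 at 0.77 (SE 0.15, limma adjusted p = 0.00355), and the KO count is near the share of all genes. Of 8 measured genes of interferon gamma signalling 6 were higher in KO and 0 were called in WT in limma, 1 having an unadjusted p under 0.05. Among them Socs1, an inhibitor that the pathway induces, was higher in KO than in WT isoproterenol by 2.49 (SE 0.38, limma adjusted p = 1.70e-04). Cd274, which encodes the checkpoint ligand PD-L1, fell in KO by 1.33 on the log2 scale (SE 0.24, limma adjusted p = 3.94e-04). Of 6 subunits of the complex that CIITA and NLRC5 join, 1 was higher and 1 lower in KO, below the shares of all genes, and Nfyc was lower in KO than in WT isoproterenol, at -0.96 (SE 0.16, limma adjusted p = 3.45e-04). The interaction was called for 14 of the 37, 13 of them more positive in KO, where 10.9% of all genes were called in that direction and 13.8% in the other, among them Ctsl at 2.79 and Irf2, a regulator of interferon targets, at 1.30 (SE 0.31, limma adjusted p = 0.00985).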

How the data were processed

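The deposited table holds log2 CPM values of 15350 genes in 16 libraries. Per the labels' protocols, libraries were made with the TruSeq Stranded mRNA kit and sequenced as 75 bp single reads on a HiSeq instrument, and the submitters' processing notes name STAR, limma and the mm39 build, without versions. How reads were counted and filtered is not recorded there. Raising 2 to each deposited log2 value and removing a prior count of 0.5 gave whole reads for 100% of values (within 1e-06), hence the library totals of 9004515 to 20986735 and the CPM printed here, and 3 reads stood for 0.143 to 0.345 CPM.

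Genes were tested with limma 3.58.1 in R 4.3.3 (statmod 1.5.0) on the deposited values, with 4 group means, a mean-variance trend, robust moderation and 12 residual degrees of freedom. P-values were adjusted by Benjamini-Hochberg over all 15350 genes for each of 5 contrasts and called under 0.05. Fold changes are on the log2(CPM with a prior count of 0.5) scale, which understates changes of low genes. Ensembl IDs were matched to symbols for 15320 genes, and 30 had none. The promoter windows came from RefSeq on GRCm38.p6, a different build from that of the reads, and gave no value. All 35 members passed a mean of 1 CPM. The members, the gene lists and the marker lists were chosen with earlier results of these data known. Values in every library are given for the classical heavy chains, B2m, Tap1, Nlrc5, H2-Aa, H2-Ab1, H2-Eb1, Cd74, Ciita, Cd80, Cd86 and every other member called in at least 2 contrasts or called against its role group, and other members are given by differences and counts.

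Groups came from the labels' genotype and treatment. The treatment text of saline samples describes isoproterenol, and the saline characteristic was used. In 3 KO saline libraries the column header carries another replicate number than the sample title, and titles were used. Replicate numbers were checked for pairing: the deviations of same-numbered WT saline and WT isoproterenol libraries correlated at 0.210 to 0.535, while other pairs of groups went down to -0.431. For 3 of the 4 WT saline libraries the best match in WT isoproterenol had their own number. A skeletal muscle marker score also ran with the number, at 0.99, -4.66, 2.97 and 5.74 in WT saline and 0.11, -5.12, 2.67 and 4.04 in WT isoproterenol. What the shared deviations come from was not tested, so the numbers may not mark paired samples. Alternatives were fits of the 2 groups alone, replicate blocks, scaling by library totals and by median of ratios, a prior count of 2, a mean CPM of at least 1, voom weights, and each library left out; the median-of-ratios scaling, the voom weights and the blocks by header number, within WT and in the WT libraries alone were chosen after seeing the data.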

Additional observations from a re-analysis of the deposited data

Results flagged for a closer look

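In 7 of the 140 sets of 4 libraries examined (35 genes in 4 groups), 1 library stood far from the other 3, as chance gives in about 1 of 20. Nlrc5 was 142 CPM in KO isoproterenol replicate 1 and 53.5 to 62.3 in the others. Tapbpl was 30.9 CPM in the same library against 21.7 to 22.9. Cd74 was 84.3 CPM in WT isoproterenol replicate 4, where the others had 126 to 133. Tap1 was 32.4 CPM and Tap2 42.5 CPM in WT saline replicate 4, where the others had 47.5 to 48.5 and 54.9 to 57.5. H2-M3 was 11.8 CPM in WT saline replicate 1 against 7.26 to 7.86. H2-DMb2 was 0.976 CPM in KO saline replicate 4 against 1.56 to 1.62.

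The response to isoproterenol differed between KO and WT, by the limma interaction, for 14 genes. It was more positive in KO for H2-T10 (2.29), H2-T23 (1.85), H2-Q7 (1.78), B2m (1.68), H2-Q4 (1.51), H2-T24 (1.42), H2-K2 (1.41), H2-D1 (1.40), Tap1 (1.37), Nlrc5 (1.17), Tapbp (1.16), H2-K1 (1.13) and H2-T22 (1.02), on the log2 scale, and more negative for Cd1d1 (-2.05). Of these 14, 7 were called in every one of the 16 fits with 1 library left out.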

How the results depend on the processing

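Counts of members called kept within 1.5 times of the main count, and the class II minus class I gap kept its sign and moved by less than the spread between libraries, under every alternative run, with these exceptions. With the WT groups fitted alone, 10 members were called in WT where 3 were in the fit of all libraries, and 16 with those libraries also paired by a replicate block. With 1 library left out the counts ran from 3 to 5 for WT isoproterenol against saline (5 without WT isoproterenol replicate 1) and from 15 to 22 for KO, stayed at 0 for genotype under saline, and ran from 21 to 29 for genotype under isoproterenol and from 7 to 18 for the interaction. The interaction count was 7 without WT saline replicate 1, WT isoproterenol replicate 4 or KO saline replicate 2, and 9 without WT saline replicate 2 or 3 or KO saline replicate 1. The near-zero saline ratios between genotypes changed sign: Cd74 over B2m ran from -0.0975 to 0.153 and was -0.0975 without WT saline replicate 2, -0.0382 without KO saline replicate 1 and -0.0949 without KO saline replicate 3, and H2-Ab1 over H2-K1 ran from -0.0216 (without WT saline replicate 2) to 0.292. The cause was not tested.

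With the replicate number as a block over all 16 libraries, 3, 20, 0, 25 and 16 members were called in the 5 contrasts in the order above, no call was lost, and calls were added for H2-Eb1 (-0.83, limma adjusted p = 0.0434) and H2-Q6 (1.03, 0.0355) in KO, H2-DMb1 between genotypes under isoproterenol (0.96, 0.0405), and H2-M3 (1.31, 0.0477) and H2-Q6 (1.68, 0.0343) for the interaction. With a replicate block for the WT libraries within the fit of all 16, the WT calls were the same 3 (Cd1d1, limma adjusted p = 0.0325, Mr1, 0.0220, and H2-T22, 0.00638). That block changed no WT call in the fit of all 16, whereas pairing in the fit of the WT libraries alone added calls, as given above. With a block by the numbers in the column headers no call was lost, H2-Eb1 in KO was not called (0.0567), and calls were added for H2-T10 in WT (-0.91, limma adjusted p = 0.0439), H2-Q6 in KO (1.03, 0.0273), H2-DMb1 between genotypes under isoproterenol (0.96, 0.0311), and H2-M3 (1.31, 0.0295), H2-Q5 (1.33, 0.0440) and H2-Q6 (1.68, 0.0257) for the interaction. Of the fold changes of single genes, 555 of 624 kept their sign and side of the threshold with 1 library left out, as did 496 of 514 under the other settings. Scaling by library totals moved the median of all genes to -0.131 in WT, 0.18 in KO, 0.272 between genotypes under isoproterenol and 0.339 for the interaction, and turned the sign only of values that were not called. It added calls for Rfx5 in WT, H2-Q6 and Tap2 in KO and for the interaction, H2-M3 for the interaction and H2-DMb1 between genotypes under isoproterenol (limma adjusted p = 0.0222 to 0.0409). The planned fits with edgeR and DESeq2 were not run, because the deposited values are log2 CPM. Cd80 in WT saline was at 0.316 to 1.10 CPM with the prior count, where 3 reads without it stood for 0.143 to 0.345 CPM. It had 12, 3, 7 and 6 reads in WT saline replicates 1 to 4.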
